A study of Mus musculus with 201 samples.

Results

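The CXB panel is a set of recombinant inbred mouse strains descended from a cross of BALB/cByJ and C57BL/6ByJ. The panel was taken as every array whose strain label starts with CXB, which gave 27 of the 201 arrays and 13 of the 100 strains of the series. The series measured RNA of whole hippocampus with Affymetrix M430 2.0 arrays in BXD strains, CXB strains, inbred strains and F1 hybrids. Strains CXB1 to CXB13 were each on 2 arrays, apart from CXB5 with 3. Each array carried RNA pooled from 2 or 3 untreated mice of one sex, 13 pools female and 14 male, at 41 to 80 days of age. BALB/cByJ was on 1 male array, of 83-day-old mice, and C57BL/6ByJ on 2 arrays, one of each sex, of 55-day-old mice. The BXD pools were 54 to 196 days old.

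In a recombinant inbred panel, repeated brother-sister mating fixes in every strain a different mosaic of the chromosomes of both founders. At any locus a strain therefore carries either the BALB/cByJ or the C57BL/6ByJ allele in both copies, and arrays of one strain are repeated measurements of one genotype. A gene whose expression follows a nearby variant tends to show the levels of both founders among the strains, while a variant that arose during inbreeding can set a single strain apart.

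The labelled sex was borne out in all 27 pools: Xist, the RNA that silences one X chromosome, read 8.61 to 9.90 in female and 7.21 to 7.39 in male pools, and the Y-linked Eif2s3y read 7.14 to 7.34 in female and 7.93 to 9.14 in male pools. These and all values below are the deposited PDNN scores, a log-like expression scale whose base is not given, so differences are in PDNN units and no folds are stated. Of the 27 arrays, 13 were in batch 4 with every strain once, 10 in batch 3, 3 in batch 7 and 1 in batch 6. The animal source was labelled JAX for 25 of the pools and UTM RW for 2. It was not in the models, and its part was not tested. The share of probe sets called present was 43.3% to 53.3%, and the ratio of 3′ to 5′ signal of beta-actin, a measure of RNA integrity, was 1.11 to 2.20. Pools of different sex came from separate mice. The CXB7 arrays differed in this, with a mean of 3 Y-linked genes of 7.53 in replicate 1 and 8.29 in replicate 2. The labels do not say whether pools of one sex shared animals, or whether pools of a strain came from separate cohorts. P-values therefore measure the spread between these pooled samples.

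The first comparison asked which transcripts differ between CXB strains by more than they differ between arrays of one strain. With sex and batch as covariates, limma's moderated F-test called 492 of 45037 probe sets (1.09%) at an adjusted p under 0.05, and 3592 had an unadjusted p under 0.05. The calls named 329 genes. The share of variance between strains, the intraclass correlation (ICC), had a median of 0.836 among the calls, which were chosen for it, and of 0.0644 over all probe sets. The median SD of strain means was 0.207 units among the calls and 0.0661 over all probe sets. The count fell to 172 without the 6 arrays with a high outlier share and to 212 on MAS5 scores, and it was 1061 without CXB7 replicate 1.

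Many of the clearest genes showed strains on 2 separate levels, each close to one founder. Uqcr10, a small subunit of complex III of the respiratory chain, read 7.19 in the lowest and 8.71 in the highest of the 27 arrays (median 8.28). The BALB/cByJ array read 7.30 and the C57BL/6ByJ arrays 8.28 and 8.83. After adjustment, CXB2, CXB7, CXB9, CXB10 and CXB12 lay at 7.25 to 7.30 and the other 8 strains at 8.29 to 8.45, with no strain between. The strain effect had an ICC of 0.965 (adjusted p = 2.2e-06), and the SD was 0.528 over the 13 arrays of batch 4 and 0.542 over the 10 of batch 3.

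Prdx2, a peroxiredoxin that reduces hydrogen peroxide, had the highest ICC among the named genes, 0.983 (adjusted p = 2.2e-07). Over the 27 arrays it read 7.96 at the lowest, 9.07 at the median and 9.54 at the highest. The BALB/cByJ array read 7.94 and the C57BL/6ByJ arrays 9.31 and 9.48. CXB3, CXB6, CXB7, CXB9, CXB10 and CXB12 were on the low side, up to 8.16, and the other 7 strains began at 9.06. The gene's further probe set was not called, so the difference was seen with 1 of 2 probe sets. A founder variant in the sequence under a probe can also change its signal, so the values here are probe signals, and whether such variants set any of these levels was not tested.

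Mtmr7, a myotubularin-related phosphoinositide phosphatase, read 7.62 to 8.81, with a median of 8.59, against 7.86 in BALB/cByJ and 8.71 and 9.14 in C57BL/6ByJ. CXB2, CXB6, CXB7, CXB10 and CXB13 were low, all at or below 7.85, and the other 8 strains were at 8.59 or above (ICC 0.968, adjusted p = 2.7e-06). Cap1, a protein that recycles actin monomers from filaments, ran in the other direction. Its lowest CXB array read 7.11, the median 8.72 and the highest 9.59. The BALB/cByJ array read 9.63 and the C57BL/6ByJ arrays 7.46 and 7.16. CXB2, CXB7, CXB9, CXB10, CXB12 and CXB13 were low (ICC 0.889, adjusted p = 0.000142), and the other probe set of Cap1 gave the same division with a higher ICC of 0.935. Of the probe sets on the array, 2 of 3 were called for Uqcr10, 1 of 2 for Mtmr7 and 2 of 2 for Cap1.

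**Figure D1:**
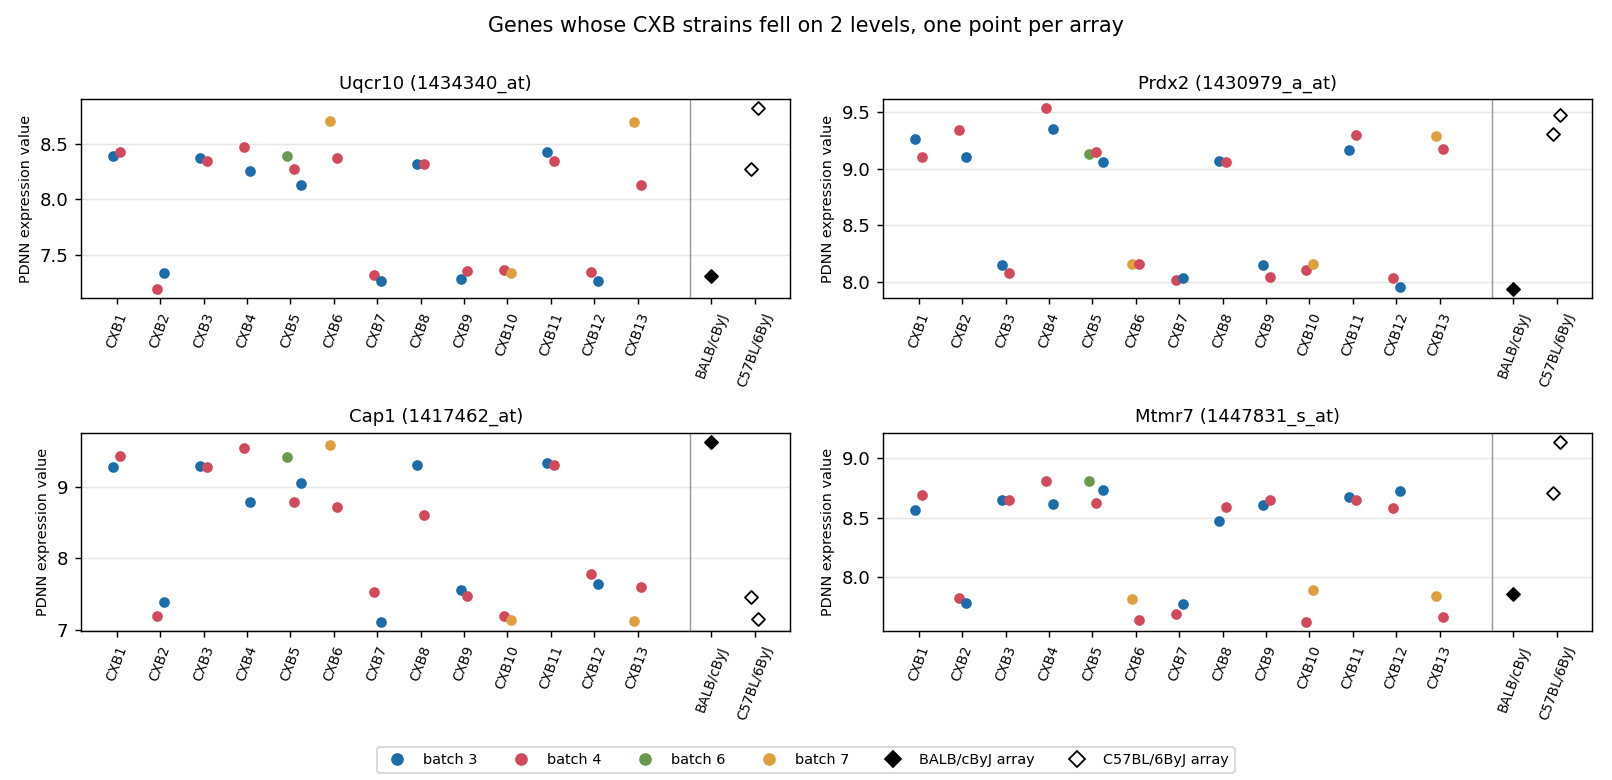
Expression (PDNN value, vertical axis) of Uqcr10, Prdx2, Cap1 and Mtmr7 in each CXB array, by strain, coloured by batch, with the founder arrays as diamonds at the right. Strains sit on 2 levels near the founders, as for Uqcr10 with 5 strains at 7.25 to 7.30 and 8 at 8.29 to 8.45.

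Further genes had an ICC close to those above. Stx3, a SNARE of vesicle fusion, had an ICC of 0.973 and ran from 7.91 in CXB1 to 8.68 in CXB6. Aldh1a1, which makes retinoic acid from retinaldehyde, had an ICC of 0.971 and ran from 8.03 in CXB4 to 9.20 in CXB2. Nsg2, a neuronal protein of vesicle traffic, had an ICC of 0.968, and Tmod3, which caps the slow-growing ends of actin filaments, 0.966. Lrp4, a receptor of the LDL-receptor family that binds agrin, had an ICC of 0.968, with levels from 7.74 in CXB10 to 8.37 in CXB2. Unlike the genes above, Lrp4 did not pass the test between founders, which differed by -0.02 ± 0.112 units (SE, adjusted p = 0.973), and 9 strains lay below both founders and 4 above.

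Other genes with a wide range among strains were not called between founders either, whose arrays lay far apart for some of them. Arhgap26 ran from 7.56 in CXB7 to 8.70 in CXB8, with 9 strains up to 7.65 and 4 from 8.61 (ICC 0.972, adjusted p = 1.7e-06). Its BALB/cByJ array read 7.43 and the C57BL/6ByJ arrays 8.67 and 8.04. Sox11, a SOX-family regulator of young neurons, ran from 7.96 in CXB4 to 9.38 in CXB1 (ICC 0.811), with founder arrays of 7.91 in BALB/cByJ and 9.57 and 8.51 in C57BL/6ByJ. Stk25, a kinase of Golgi organisation, ran from 8.02 in CXB10 to 9.44 in CXB5, with 5 strains up to 8.35 and 8 from 9.31, but 32 of 54 alternative settings ended its call. Founder differences for these 3 genes were -0.77 ± 0.338, -0.80 ± 0.323 and -0.91 ± 0.292 units, with adjusted p of 0.405, 0.326 and 0.121.

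The second comparison set the founders against each other. In the fit of all arrays, limma called 535 probe sets between BALB/cByJ and C57BL/6ByJ (1.19%), 261 higher in BALB/cByJ (0.58%) and 274 lower (0.608%). BALB/cByJ had 1 array, so its spread was assumed to be that of the other strains. Of the 492 probe sets called among CXB strains, 195 (39.6%) were also called between the founders, and these were 36.5% of the 535. The share is read against the 1.19% called between founders over all probe sets. Of the 195, 62 were higher and 133 lower in BALB/cByJ. Without C57BL/6ByJ replicate 2, the founder test called 167 probe sets.

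Among probe sets called in both comparisons, the largest rises in BALB/cByJ were of Cap1 (2.25 ± 0.334 units, SE, adjusted p = 1.6e-06), Pdxdc1, which has a pyridoxal-dependent decarboxylase domain (1.53 ± 0.160), and Erdr1 (1.52 ± 0.283). Baiap2l1, which shapes membranes at actin-rich protrusions, was higher by 1.25 ± 0.112. Tmem87a, a membrane protein of the Golgi, was higher by 1.06 ± 0.128, and Rbm39, a splicing factor, by 1.03 ± 0.191 units. Epb41l1, which links membrane proteins to the spectrin skeleton, was higher by 1.01, and Gnb1, a beta subunit of heterotrimeric G proteins, by 0.945. Spon1, a secreted matrix protein, and Lsm12, an RNA-binding protein, completed the 10, each with a rise of 0.93 units.

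The largest falls in BALB/cByJ were of Pttg1, the securin that restrains sister chromatid separation, with -2.03 ± 0.200 units (adjusted p = 1.6e-12), Prune2 with -1.86 ± 0.408 and the pseudogene Pisd-ps3 with -1.80 ± 0.260. Rpgrip1, a protein of the photoreceptor cilium, differed by -1.74 ± 0.314, and Phgdh, the first enzyme of serine synthesis from glycolysis, by -1.61 ± 0.196 units. Prdx2 and Uqcr10 differed by -1.44 ± 0.157 and -1.33 ± 0.172 units. Rps9, a protein of the small ribosomal subunit, and Efhd2, a calcium-binding protein that binds actin, differed by -1.31 ± 0.191 and -1.30 ± 0.206. The brightest probe set of Rps9 was not called, with a founder difference of 0.03 units (adjusted p = 0.988) and an ICC of -0.06. Nor were the brightest probe sets of Phgdh and Uqcr10 called between founders. That of Phgdh passed the strain test, with levels from 8.73 in CXB10 to 9.31 in CXB6. Rps9, Efhd2, Erdr1, Epb41l1, Prdx2 and Rpgrip1 passed the strain test through 1 probe set only, of 2 to 4 on the array. Phgdh passed it with 2 of 4 probe sets and Rbm39 with 3 of 12. The tenth was a second probe set of Pdxdc1, at -1.21 ± 0.168 units, opposite in direction to the first. The levels of both Pdxdc1 probe sets ran against each other across the 13 strains, the first being low in 4 strains and the second high in the same 4.

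For the 195 probe sets, which had to differ among strains and between founders to be chosen, the division of the strains is a description that the choice largely fixes. The number of strains nearer to BALB/cByJ had a median of 6 of 13 and ran from 2 to 11, with 4 to 9 strains for 180 probe sets. By strain, the share of the 195 probe sets nearer to the BALB/cByJ level ran from 34.4% in CXB5 to 60.5% in CXB4, with 59.0% in CXB1, 56.4% in CXB12 and 41.0% in CXB6. These probe sets lie in linked groups, so the shares do not measure the genome-wide make-up of a strain.

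Genes that lie close together shared their strain pattern. Among 313 called genes placed in RefSeq order (GRCm38.p6), the absolute correlation of levels over 13 strains had a median of 0.812 for 187 pairs up to 25 genes apart. It was 0.596 for 403 pairs 26 to 100 genes apart, 0.283 for 2184 pairs farther apart on one chromosome and 0.246 for 46054 pairs on different chromosomes. An absolute correlation of 0.8 or more was reached by 50.8%, 22.3%, 3.62% and 1.51% of those pairs. Without CXB7 the last share was 0.456% and the first 50.3%. Genes were chosen for strain differences and share the same arrays, so these are descriptions.

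For 21 of the 32 genes named for their SD or ICC and placed on a chromosome, the likest other called gene was on the same chromosome, against 5.68% of all pairs. On chromosome 19, Prune2 was likest to Rorb, a nuclear receptor, 9 genes away (r = 0.917 over 13 strains), and to Aldh1a1, 11 genes away (r = 0.906). On chromosome 8, Mtmr7 was likest to Micu3, a regulator of mitochondrial calcium uptake, 4 genes away (r = 0.970). Prdx2 was likest to Slc27a1, a fatty acid transporter, 125 genes away, with opposite levels (r = -0.969). On chromosome 14, Rpgrip1 ran opposite to its neighbour Supt16, a histone chaperone subunit (r = -0.964). On chromosome 4, Efhd2 ran opposite to Casp9, an initiator caspase, 2 genes away (r = -0.955). Uqcr10 on chromosome 11 was likest to Cap1 on chromosome 4 (r = 0.837), a pair of unlinked genes that 12 of the 13 strains divided in the same way, all but CXB13.

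**Figure D2:**
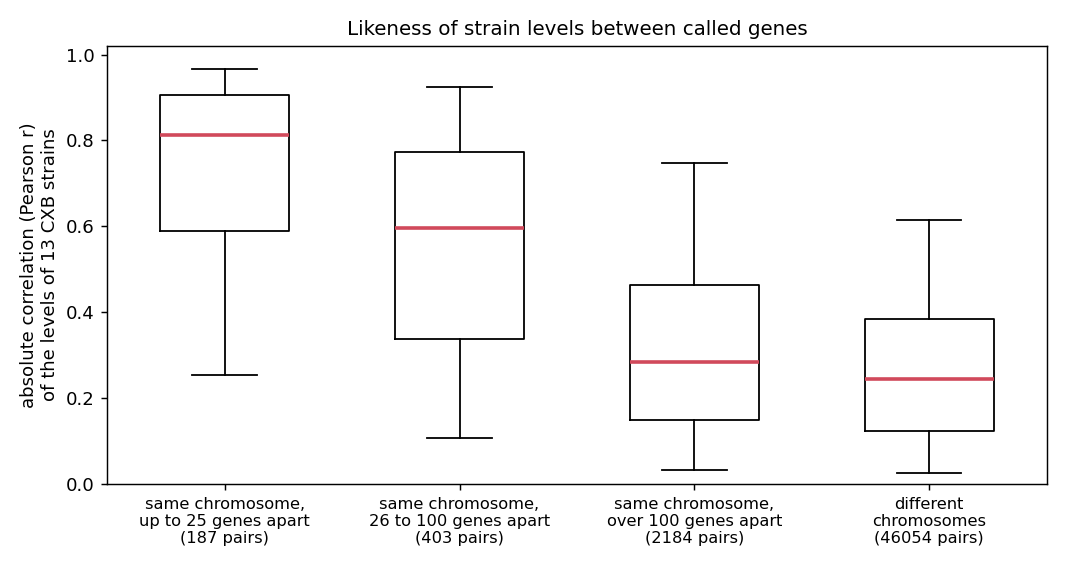
Absolute Pearson correlation of the levels of 13 CXB strains between pairs of called genes, by distance in gene order. Boxes give the quartiles with the median in red and whiskers the 5th and 95th percentiles; the median falls from 0.812 for pairs up to 25 genes apart to 0.246 between chromosomes.

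A second kind of pattern was a single strain away from all others. For 135 of the 492 calls the largest gap between neighbouring strain levels set 1 strain apart, for 70 of them CXB7 and for 35 CXB2. With a gap of at least 0.6 of the whole range, a limit chosen after the values were seen, 61 calls remained, 47 of them for CXB7 and 14 for other strains. The genes in the next 3 paragraphs were chosen by this gap, so that their separation is a description. None of those named passed the test between founders.

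Bok, a Bcl-2 family protein counted here among the pyramidal neuron markers, read 7.78 and 7.74 in both CXB10 arrays and 8.82 to 9.16 in the other 25. The BALB/cByJ array read 9.09 and the C57BL/6ByJ arrays 8.93 and 8.85. Both CXB10 pools were thus lower than every other CXB and founder array (strain effect adjusted p = 4.3e-06). Without arrays of high outlier share the adjusted p was 0.0544, and with batches 3 and 4 alone, which leaves CXB10 out, it was 0.745. Lmbr1, a membrane protein whose gene holds a limb enhancer of sonic hedgehog, read 7.40 and 7.45 in CXB1 and 8.18 to 8.67 in the other 25 arrays (adjusted p = 6.1e-05). Of 4 Lmbr1 probe sets 2 were called, and the second read 7.40 and 7.45 in CXB1 as well, against 7.82 to 8.19 elsewhere (adjusted p = 0.0058). On MAS5 scores the adjusted p of the first was 0.162, and without either CXB1 array that of the second was 0.147 and 0.116.

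Ube2e2, an E2 ubiquitin-conjugating enzyme, read 7.81 and 7.71 in CXB11 and 9.12 to 9.70 in the other 25 arrays (adjusted p = 2.6e-05). Nhsl2, an X-linked gene of the Nance-Horan family, was also low in CXB11, at 7.98 and 7.94 against 8.37 to 9.32. The 3 CXB arrays of batch 7 gave the lowest Nhsl2 values of the other strains, 8.37, 8.38 and 8.55. Of the founder arrays of that batch, C57BL/6ByJ read 8.42 and BALB/cByJ 9.23, and the part of the batch was not tested. Of 3 Nhsl2 probe sets 2 were called, and the second read 7.82 and 7.81 in CXB11 and 8.37 to 8.81 elsewhere, and its adjusted p was 0.096 and 0.115 without either CXB11 array.

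App, the precursor of amyloid beta, was lowest in CXB3 with both called probe sets. The first read 9.50 and 9.54 in CXB3 and 10.08 to 10.72 elsewhere, the second 9.97 and 10.13 against 10.39 to 11.09 (adjusted p = 0.0348 and 0.0439). Its other 2 probe sets were not called. The App calls were not firm: of 54 alternative settings, 26 ended the first and 38 the second. In CXB2, Ghitm, a mitochondrial inner membrane protein, read 9.46 and 9.38 against 10.01 to 10.56 elsewhere. Phf24 read 8.02 and 8.39 against 8.98 to 9.47. Ufm1, a ubiquitin-like modifier, was higher in CXB2, at 9.32 and 9.02 against 8.24 to 8.60. Without CXB2 replicate 1 the adjusted p was 0.140 for Ghitm and 0.560 for Ufm1, while the call of Phf24 held without either array.

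**Figure D3:**
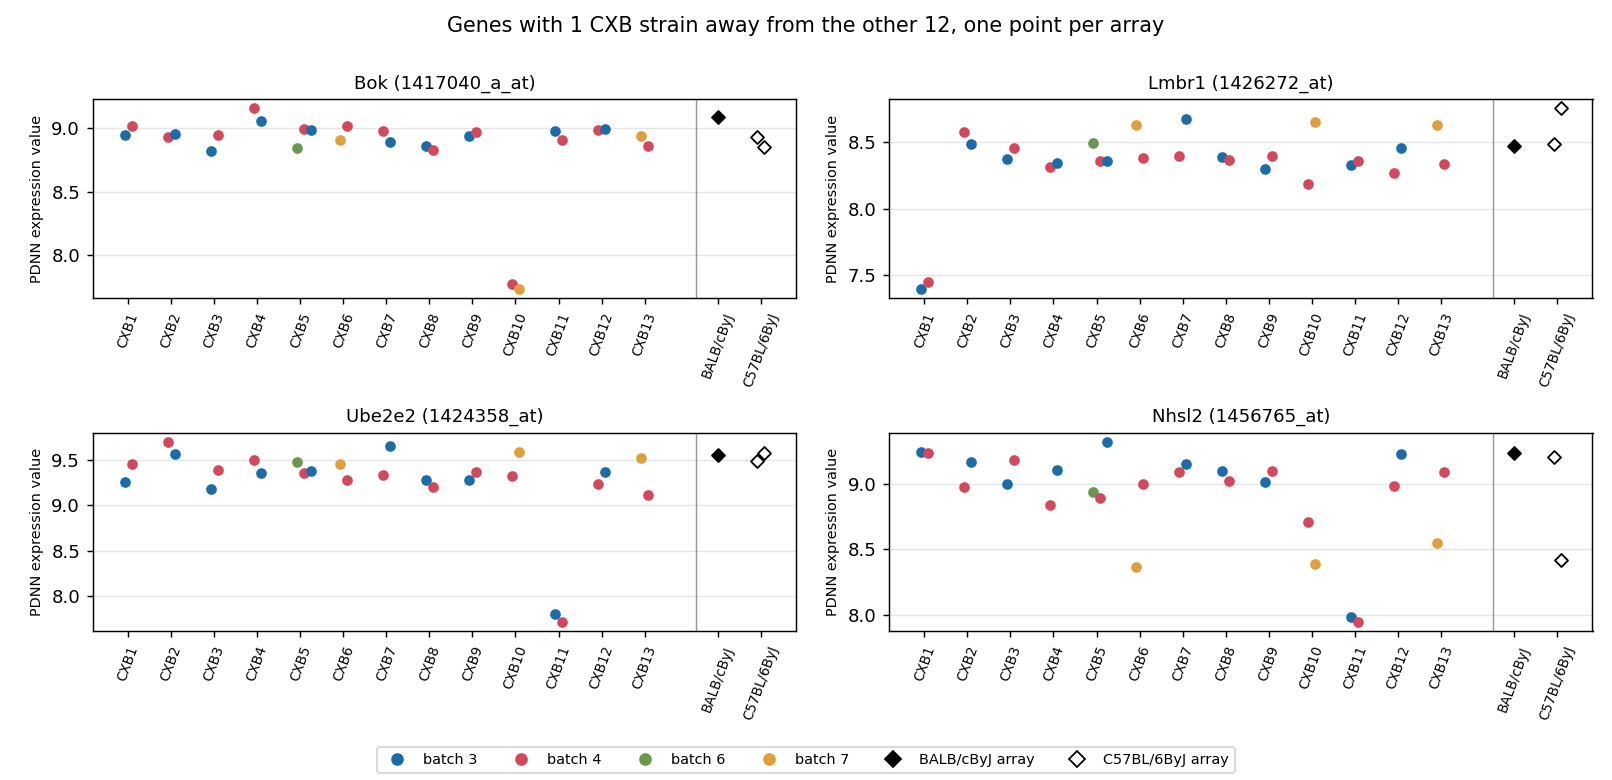
Expression (PDNN value) of Bok, Lmbr1, Ube2e2 and Nhsl2 in each array, by strain and batch, with founder arrays as diamonds. One strain lies below all others in each panel: CXB10 for Bok at 7.78 and 7.74, CXB1 for Lmbr1 at 7.40 and 7.45, and CXB11 for Ube2e2 and Nhsl2.

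The strain most often set apart was CXB7, in which interferon-response genes were high in both pools. Type I interferon acts through transcription factors, IRF9 among them, to raise a large set of antiviral genes and the MHC class I pathway, which presents peptides to T cells. Of 22 measured genes of the interferon-response list, 13 passed the CXB strain test, against 1.09% of all probe sets, and none was called between founders. The median ICC of the list was 0.745. Without strain CXB7, 0 of the 22 were called by limma. On MAS5 scores 1 of the 22 passed the strain test, 6 did without arrays of high outlier share and 8 without CXB7 replicate 2. With array weights 8 passed the strain test, and with the ordinary F-test 7. The list and the contrast of CXB7 were examined after the strain levels had been seen.

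Against the mean of the other 12 strains, limma called 216 probe sets higher in CXB7 (0.48%) and 54 lower (0.12%). Of the 22 interferon-response genes, 16 were higher and none lower, and the median difference was 0.509 units, against -0.01 over all probe sets. For 17 of the 22, both CXB7 arrays exceeded all 25 other CXB arrays. Within batch 4 the CXB7 array was above those of the other 12 strains for 19 genes, and within batch 3 above those of the other 9 strains for 18. For 18 genes the CXB7 level was above that of all 99 other strains of the series. BXD74 came next for 8 of the 22. CXB7 replicate 2, which read higher than replicate 1 for most of the genes called, had the highest 3′ to 5′ ratio of GAPDH in the panel, 1.48, against 0.92 in replicate 1 and 0.75 to 1.14 in the other 25 arrays. Its beta-actin ratio was 1.74, and the part of RNA quality was not tested. Both CXB7 pools were of 2 mice, while every other CXB strain had a pool of 3, and the part of pool size was not tested. The labels used here give no health or housing record, so a state shared by the CXB7 mice, such as an infection, and an effect of their genotype cannot be told apart.

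Of the 16 genes with higher levels, 6 hold, in the 250 bases before their RefSeq start, the core of the interferon-stimulated response element, which IRF proteins bind. The motif searched was GAAANN followed by GAAA, on both strands, where N is any base, and a second match may overlap the first. It was found for 6 of the 13 higher genes that have a promoter entry and for 3.46% of 27025 genes with one. The 13 were drawn from a list of interferon-response genes, and no share is given for list genes that were not higher. The comparison therefore cannot tell a property of the list from one of the genes that rose in CXB7. A match is a description of these letters only. Stretches before the starts of 4 of these genes are shown because they carry matches in genes that rose together. They are written 5′ to 3′ on the strand of the gene (GRCm38.p6, RefSeq), with matches in capitals, and TTTCNN followed by TTTC is the motif on the opposite strand. They lie at chr19:34640774-34640843 (Ifit1, plus strand), chr3:142559975-142560043 (Gbp3, plus strand), chr8:71537557-71537626 (Bst2, minus strand) and chr5:120907526-120907569 (Oas1a, minus strand).
Ifit1: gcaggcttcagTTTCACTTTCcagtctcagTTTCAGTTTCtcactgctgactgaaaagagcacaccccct
Gbp3: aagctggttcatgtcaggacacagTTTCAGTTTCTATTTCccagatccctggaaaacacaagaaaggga
Bst2: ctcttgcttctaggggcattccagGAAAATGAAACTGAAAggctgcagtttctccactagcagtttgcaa
Oas1a: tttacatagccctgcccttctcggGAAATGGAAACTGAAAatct

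Ifit1, which binds viral RNA that lacks proper cap methylation, read 8.55 and 8.75 in the CXB7 arrays. The other 25 CXB arrays read 7.33 to 7.64, with a median of 7.48, and the founder arrays 7.36 to 7.62. CXB7 exceeded the mean of the other strains by 1.16 ± 0.065 units (adjusted p = 4.9e-07), and no array of another strain in the series reached it. Gbp3, an interferon-induced GTPase, read 8.38 and 8.78 against 7.57 to 7.74, a difference of 0.919 ± 0.0633 units (adjusted p = 2.1e-06). Bst2, or tetherin, which holds budding virions at the cell surface, read 8.50 and 8.98 against 7.78 to 8.14 (0.792 ± 0.0673, adjusted p = 1.8e-05). Oas1a, a sensor of double-stranded RNA, read 7.96 and 8.24 against 7.41 to 7.69 (0.514 ± 0.0606, adjusted p = 0.000461).

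The largest difference of the list was that of Oasl2, an OAS-like protein, at 8.71 and 9.24 in CXB7 and 7.43 to 7.75 in the other 25 arrays (1.43 ± 0.0844 units, adjusted p = 5.7e-07). Usp18, which removes ISG15 from proteins and restrains interferon signalling, read 8.41 and 8.68 against 7.30 to 7.58 (1.11 ± 0.0718). Among the transcription factors of the pathway, Irf7 differed by 0.501 ± 0.0432 units (adjusted p = 2.1e-05) and Irf9 by 0.503 ± 0.0595 (adjusted p = 0.000475). Stat2 differed by 0.01 ± 0.061 (adjusted p = 0.952). The RNA helicase sensors Ifih1 and Ddx58 were higher by 0.351 ± 0.0512 and 0.278 ± 0.0540 units. The genes of the list that were not called were Stat2, Rsad2, Oas2, Oas1b, Xaf1 and Gbp2, with differences of 0.01 to 0.382 units. Ifitm3, which blocks entry of enveloped viruses, is not on the list and was named for its ICC of 0.963; it read 9.66 and 10.01 in CXB7 against 8.33 to 8.78.

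**Figure D4:**
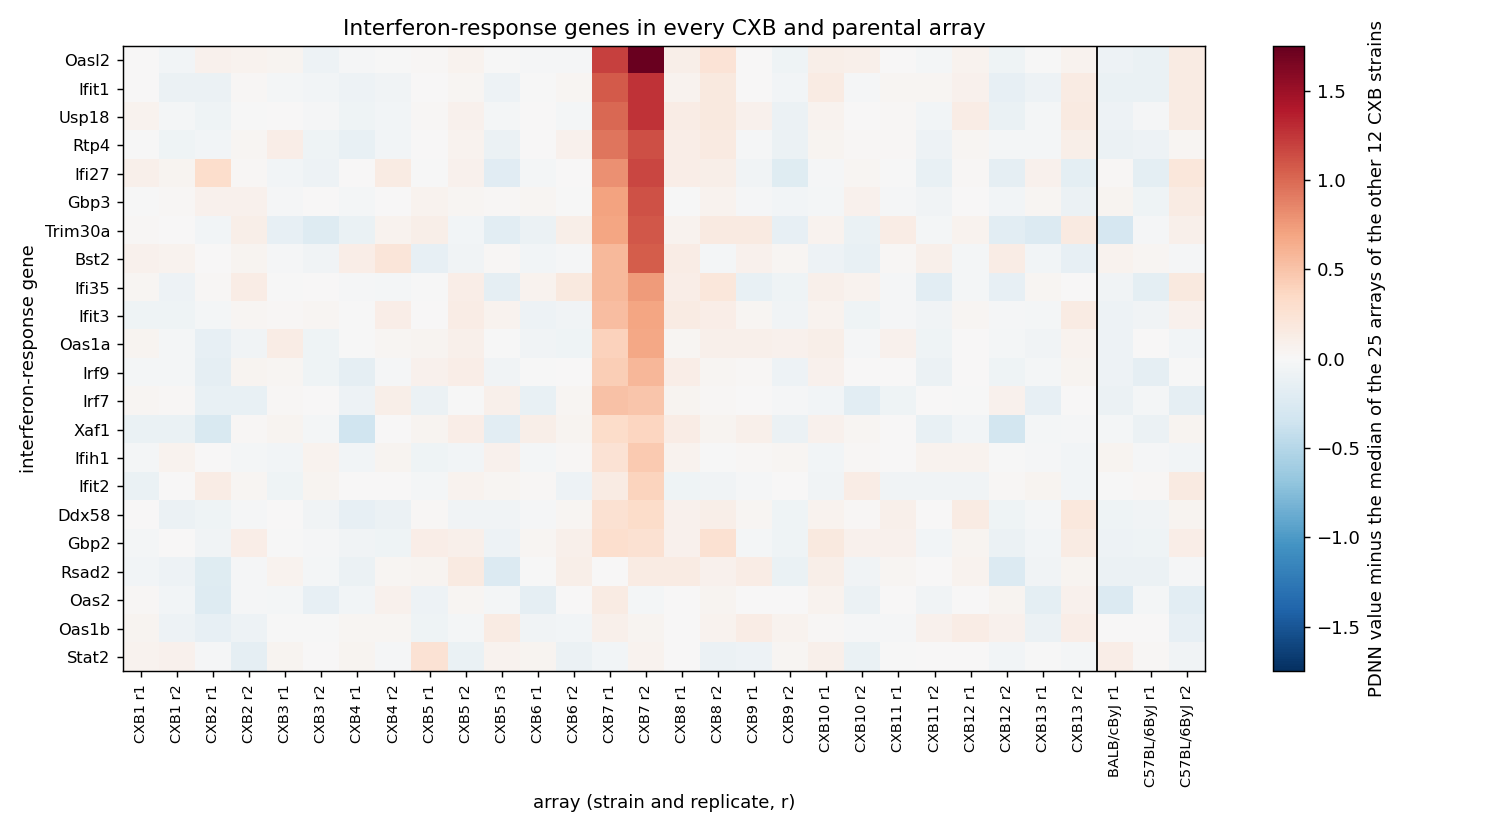
Difference of each array from the median of the 25 arrays of the other 12 CXB strains (colour, PDNN units) for the 22 interferon-response genes, with CXB arrays by strain and the 3 founder arrays at the right. Both CXB7 arrays are high for 17 genes, led by Oasl2, Ifit1 and Usp18.

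Some genes of the MHC class I pathway were also higher in CXB7. Of 23 measured genes of the MHC list, 7 were higher in CXB7, against 0.48% of all probe sets, none was lower, and 3 passed the strain test. The heavy chains H2-D1 and H2-K1 differed by 1.24 ± 0.0669 and 1.22 ± 0.0776 units, and their light chain B2m by 1.20 ± 0.0893. B2m read 10.33 and 10.76 in CXB7 against 9.02 to 9.88 in the other 25 arrays. Class I heavy chains are near-identical copies and these probe sets can bind several of them, so the level of a single heavy chain is uncertain. The peptide transporter Tap1, its partner Tapbp and the immunoproteasome subunits Psmb8 and Psmb9 were higher by 0.263, 0.326, 0.400 and 0.222 units. Tap2, Psmb10, Erap1, Nlrc5 and the class I genes H2-Q2, H2-Q10, H2-T3, H2-T24, H2-M3 and H2-Bl were not called, with differences of -0.06 to 0.194 units. Genes of the class II pathway were not called: H2-Aa, H2-Ab1, H2-Eb1, H2-DMa, Cd74 and Ciita differed by -0.07 to 0.109 units. Their medians in the other 25 arrays were low, from 7.51 for H2-Aa to 7.99 for H2-DMa. Xist read 7.21 to 7.39 in male pools. Whether low signal hid differences was not tested.

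Some markers of microglia, the immune cells of the brain, were also higher in CXB7. Of 10 measured markers, 6 were higher, against 0.48% of all probe sets, and none lower. The mean of the list was 8.87 and 8.91 in the CXB7 arrays and 8.42 to 8.84 in the other 25. Ctss, a lysosomal protease that also trims antigens, was higher by 0.641 ± 0.0708 units, C1qc by 0.538 ± 0.100, C1qb by 0.411 ± 0.0515, Csf1r by 0.352 ± 0.0544, Tyrobp by 0.299 ± 0.0454 and Aif1 by 0.247 ± 0.0506. The Aif1 call was ended by 27 of 37 alternative settings. Unlike the interferon genes, C1qb and Tyrobp were also called between founders, lower in BALB/cByJ by -0.47 and -0.57 units (adjusted p = 0.0395 and 0.00804), and the founder arrays read up to 9.12 and 8.65. C1qa, Cx3cr1, P2ry12 and Trem2 differed by 0.149, 0.164, 0.340 and -0.07 units and were not called. In bulk tissue more cells of a type and more RNA per cell cannot be told apart, and the part of microglia in the interferon result was not tested. Of the other cell lists, 1 of 10 astrocyte markers (Aqp4, 0.441 ± 0.0694) and 1 of 9 endothelial markers (Flt1, 0.244 ± 0.0507) were higher, and none of the dentate, pyramidal, interneuron, myelin, choroid plexus, thalamic or erythroid markers was called.

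The total of 270 calls for CXB7 rested on its arrays: it was 76 without CXB7 replicate 2 and 6122 without CXB7 replicate 1, while 11 and 16 of the 22 interferon genes were called in those fits. With 1 CXB7 array left, its spread was assumed to be that of the other strains. On MAS5 scores 8 of the 22 were called, and 11 with array weights, which gave both CXB7 arrays the lowest weight of the panel, 0.267. Genes lower in CXB7 than in any other strain included Kif21b, a kinesin motor, at 7.62 and 7.61 against 8.11 to 8.42, and Pde7b, a cAMP phosphodiesterase, at 7.94 and 7.83 against 8.41 to 8.85. Their differences were -0.65 ± 0.0522 and -0.62 ± 0.0503 units (adjusted p = 1.1e-05 for both). CXB2 had more calls than CXB7, 1969 higher (4.37%) and 305 lower (0.677%), but only 7 in all without CXB2 replicate 1 and 20 on MAS5 scores. That array had the highest present share of the panel, 53.3%, and an SD of 0.789 over probe sets. The other 11 strains had 23 to 81 calls each.

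The lists of cell types and pathways gave few other strain differences. Counting one probe set per gene, calls in the strain test were made for 3 of 10 microglial markers, 2 of 10 pyramidal (Bok and Lypd1), 2 of 9 endothelial (Cldn5 and Flt1), and 1 each for myelin (Ugt8a), astrocytes (Aqp4) and thalamus (Slc17a6), against 1.09% of all probe sets. Of 54 alternative settings, 28 ended the call of Cldn5, 28 that of Flt1, 18 that of Slc17a6 and 16 that of Aqp4. None of 10 dentate granule, 12 interneuron, 10 choroid plexus or 2 erythroid markers was called. Of 22 respiratory chain genes, 0 were called through their brightest probe set, since Uqcr10 was called through another one, and likewise 0 of 20 peroxiredoxin and glutathione genes. None of 15 genes of mitochondrial beta-oxidation, 9 GABA-A receptor, 13 ionotropic glutamate receptor or 14 immediate early genes was called. Phgdh among 9 serine and glycine genes, Cap1 among 14 actin regulators, C1qb among 9 complement genes and Rps6 among 10 ribosomal protein genes passed the test.

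Genes with known strain variants were read through every probe set. Glo1, the enzyme that detoxifies methylglyoxal, was called with 4 of 4 probe sets. Its probe set with the highest ICC of 0.904 ran from 9.16 in CXB8 to 10.14 in CXB10, the BALB/cByJ array read 10.29, and the C57BL/6ByJ arrays 9.37 and 9.73. Alad, an enzyme of heme synthesis, was called with 1 of 2 (ICC 0.882, adjusted p = 0.000436), and Kcnj9, an inwardly rectifying potassium channel, with 1 of 4 (ICC 0.757, adjusted p = 0.0145). None of the 5 probe sets of the GABA-A receptor subunit Gabra2 and none of the 3 of Nnt, the mitochondrial transhydrogenase, was called in the CXB panel, although 4 and 2 of them were called in the BXD panel. The test of the spread between panels was not passed by any of these 8 probe sets, with adjusted p from 0.548 to 0.994. The BXD test had 133 columns of 68 strains and the CXB test 27 arrays of 13. A call in the BXD panel alone is therefore no difference between panels, and the share of such calls over all probe sets is not given. Acads was not called in either panel. Pam was a strain call in the BXD panel and not in CXB, and its spread differed by -0.31 ± 0.0880 units (adjusted p = 0.0609).

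The third comparison asked whether strains spread more widely in the CXB than in the BXD panel, whose founders are C57BL/6J and DBA/2J. The absolute deviation of each strain from its panel median was compared between 13 CXB and 68 BXD strains. Limma called 488 probe sets (1.08%), 248 wider in CXB (0.551%) and 240 narrower (0.533%). Of the 248, 109 were CXB strain calls and 81 were called between the CXB founders. Of the 240, 2 were CXB strain calls and 3 were called between the CXB founders. Over all probe sets these shares were 1.09% and 1.19%. The strain calls among the 248 follow in part from the choice, since a probe set wider in CXB has CXB strain levels that lie far apart. Their count is therefore a description too. BXD strain calls made up 236 of the 240, a description only, since a probe set narrower in CXB is wide in BXD by choice. The share of BXD strain calls over all probe sets is not given here. For 106 of the 248, CXB2 was the highest or the lowest of the CXB strains, and without CXB2 the counts were 213 wider and 236 narrower. On RMA scores the split was 360 wider and 205 narrower, on MAS5 scores 311 and 178, and without arrays of high outlier share 582 and 205.

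Uqcr10 spread most widely of the named genes relative to BXD, with a mean deviation of 0.431 units in CXB and 0.0783 in BXD (difference 0.353 ± 0.0598, SE, adjusted p = 3.9e-05). The brightest probe set of Uqcr10 was not called wider in CXB. Aldh1a1 gave 0.359 against 0.0878 (adjusted p = 5.3e-08), Spon1 0.397 against 0.0906 (adjusted p = 1.7e-07) and Arl2bp, a partner of the GTPase ARL2, 0.387 against 0.0950 (adjusted p = 4.4e-07). Ywhaq, a 14-3-3 adaptor protein, gave 0.332 against 0.0567, Idh3b, a subunit of the isocitrate dehydrogenase of the citric acid cycle, 0.336 against 0.0675, and Chchd4, which folds proteins imported between the mitochondrial membranes, 0.329 against 0.0611. Nsg2, Clip4, a microtubule-binding protein, and a second probe set of Pisd-ps3 were also among the 10, with differences of 0.263, 0.249 and 0.297 units. All 10 were strain calls in CXB and were called between the founders through the same probe sets.

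Narrower in CXB were Ttr, the thyroid hormone carrier of the choroid plexus (0.190 against 0.760 units, adjusted p = 0.0226), Fam126b (0.0974 against 0.636) and Gprc5b, an orphan receptor (0.0849 against 0.526, adjusted p = 6.4e-12). Ttr was the exception among these in that it was no strain call in BXD either (adjusted p = 0.131), and the C57BL/6ByJ arrays read 8.94 and 11.79 for it. Through their brightest probe sets, 0 of 10 choroid plexus markers, Ttr included, were called narrower in CXB. A second Gnb1 probe set, Shisa4, Fam168a, Paip1, Acer3, Meg3 and Hspa13 made up the 10. Of these 7, only the Gnb1 probe set passed the strain test in CXB (adjusted p = 0.0155). For Prdx2, Mtmr7 and Cap1 the difference between panels was not called, at -0.04 ± 0.155, -0.16 ± 0.122 and 0.249 ± 0.231 units (adjusted p = 0.996, 0.926 and 0.964), and all were strain calls in both panels.

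**Figure D5:**
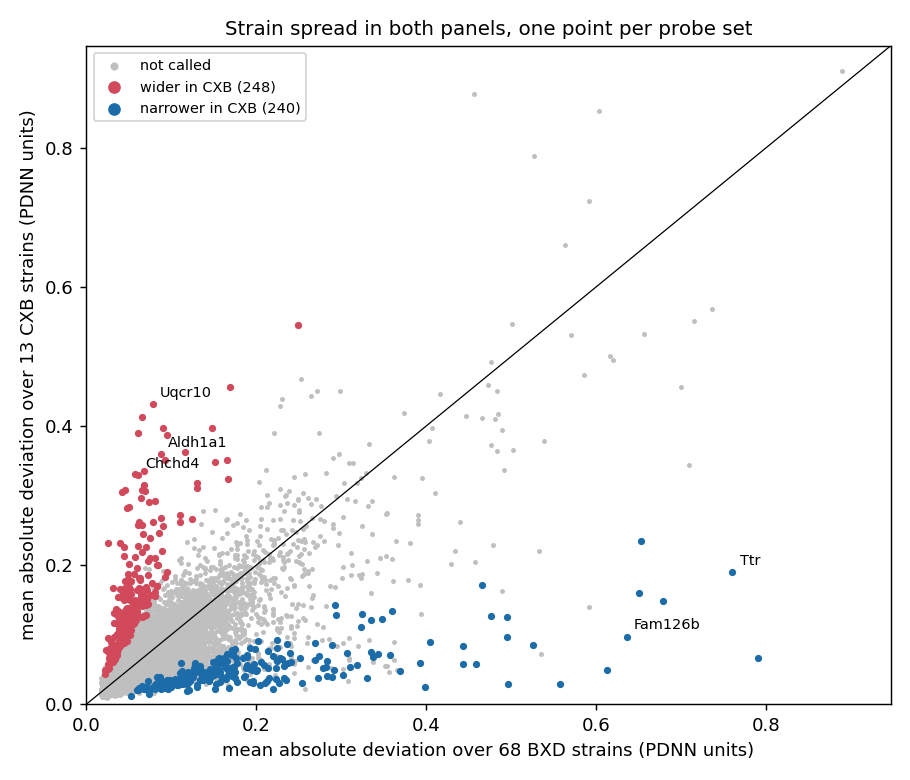
Mean absolute deviation of strain levels from the panel median in 68 BXD strains (horizontal) and 13 CXB strains (vertical), in PDNN units, one point per probe set, with the line of equality. The 248 probe sets called wider in CXB are red, Uqcr10 among them at 0.431 against 0.0783, and the 240 called narrower are blue.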

How the data were processed

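Probe signals came summarised by 3 methods, PDNN, RMA and MAS5, and each deposited table gives a score for every probe set. A rescaling to mean 8 and SD 2 is stated per the labels for PDNN. The deposited scores averaged between 8.06 and 8.10 per array, with an SD between 0.633 and 0.801. For the log base and for software versions, the sources used here give nothing. Arrays have no counting depth, and their number limits the precision. Of 45037 probe sets tested, 34945 had 1 symbol, 932 several and 9160 none, and 34741 matched RefSeq by gene ID. Groups came from the strain labels.

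Models were fitted with limma 3.58.1 in R 4.3.3 (data.table package, version 1.17.8), and tables were made with Python 3.11.15, pandas 2.3.3 and numpy 2.4.6. The CXB fit had 17 terms (strain, sex, batch), 10 residual degrees of freedom and a median residual SD of 0.0813 units. CXB5 replicate 1, alone in batch 6, carried no weight in it. The ICC was computed from the partial F. Founders and the spread of panels used a fit of all 199 columns, with the B6D2F1 duplicate averaged and the mixed-sex BXD9 array left out; strain levels come from this fit. Tests were two-sided with Benjamini-Hochberg adjustment over all probe sets and a threshold of 0.05.

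Named were the 20 genes with the largest SD of strain means and the 20 with the largest ICC, the 10 largest founder differences each way among probe sets called in both tests, the 10 largest spread differences each way, and called members of the gene lists. Clone and predicted names were left out. The contrasts of single strains, the gap rule and the removal of whole strains were added after seeing the data. Members, lists and rules were chosen with earlier results of these data known. The lists also held Y-linked genes and genes escaping X inactivation, of which 0 of 3 and 0 of 5 were called. The models were tested on simulated data. Alternatives were the RMA and MAS5 scores, the values deposited with the series, a filter at a mean of 8, quantile normalization, models without batch or sex, age, array weights, an ordinary F-test, other sources of spread, and removal of outlier arrays, single arrays or strains.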

Additional observations from a re-analysis of the deposited data

Results flagged for a closer look

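The spread of strains differed between panels, by a test of the difference itself, for 248 probe sets that were wider among the 13 CXB strains and 240 that were narrower than among the 68 BXD strains. No strain of the CXB panel had 4 or more arrays, so single arrays could not be tested as outliers within a strain.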

How the results depend on the processing

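No paired analysis was possible because replicate numbers were given in accession order and pair no samples. The series value table gave every count unchanged. The 492 strain calls became 212 on MAS5 scores, 303 at a mean of 8 or more, 172 without outlier arrays, 1890 with the spread of all arrays, 945 with array weights and 274 with the ordinary F-test. They ranged from 353 to 1061 without single arrays and from 364 to 604 without single strains. The 535 founder calls became 348 on MAS5 scores (117 higher in BALB/cByJ, 231 lower), 311 without the batch term and 1204 with BALB/cJ averaged in, and were 167 and 756 without either C57BL/6ByJ array. The 488 spread calls became 787 without outlier arrays, 907 with deviations from the mean and 197 against the earlier BXD strains. The 270 CXB7 calls became 96 on MAS5 scores (56 higher, 40 lower), 122 with a mean of 8 or more, 155 without outlier arrays, 481 with age and 49 with array weights, and ranged from 76 to 6122 without single arrays. The 2274 CXB2 calls became 831 on RMA and 20 on MAS5 scores (11 higher, 9 lower), 520 after quantile normalization, 124 without the batch term, 63 without outlier arrays, 5360 with array weights and 9487 without CXB7, and ranged from 7 to 9893 without single arrays. The causes were not tested. No called difference of a named gene was reversed in the founder, spread or CXB7 contrasts. Signs of the small differences that were not called are not covered by this. For H2-T24, for example, the CXB7 arrays read 7.87 and 7.52, around the median of 7.67 of the other 25.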
